A study of Homo sapiens with 3 samples.

Results

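The genes described here are the effector genes of the interferon response, a list of 42 genes, in FaDu cells grown with and without a plant extract. They were read from every probe set of the array that names exactly 1 gene, that gene being one of the 42. Such probe sets, 99 of the 44988 on the array, were found for 41 of the 42 genes, against 18132 genes in all. USP18, the protease that removes ISG15 from proteins, had none. The treated group was 1 culture of FaDu, a long-established squamous carcinoma line of the hypopharynx (lower throat), kept for 48 h with NSC-631570, an extract of greater celandine (Chelidonium majus), at 10 µg/ml, the half-maximal effective dose by the submitters' account. The untreated group was 2 arrays of the same line given distilled water, and all 3 arrays carry RNA of cells in RPMI medium with fetal calf serum and antibiotics. It is a single tumour line with no second line beside it, and nothing in the labels says whether the untreated arrays, called untreated 1 and untreated 2 below, came from separate cultures. Spread between them may therefore be technical.

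Cells answer interferon through receptors at their surface and the kinases JAK1 and TYK2. IRF9 then binds, as part of a larger factor, the interferon-stimulated response element, a short repeat of GAAA, in front of the genes it turns on. The products block viruses at many steps: helicases and kinases that sense viral RNA, IFIT proteins that hold back its translation, membrane proteins that stop entry and release, and the ubiquitin-like modifier ISG15. Epithelial cells, those of the throat included, carry this response, and some tumour lines keep part of it running without added interferon.

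Signals are on a log2 scale, so a difference of 1 is 2-fold. A gene took the values of its brightest probe set by mean over the arrays, and no gene was tested whose mean lay under 5.85, which is the 40th percentile over all probe sets. That left 11932 genes, 40 of the 42 among them: MX2 was under the filter and USP18 had no such probe set. The comparison of treated with untreated used limma across all 11932 genes, with p-values adjusted by Benjamini and Hochberg's method and called under 0.05. The error of each difference is limma's SE, which rests on the 2 untreated arrays and assumes that the single treated array varies as they do. An exact one-sided permutation test of 1 array against 2 cannot go below 0.333, so none was run. In bulk RNA, fewer cells with a transcript and less transcript per cell cannot be told apart.

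The array medians lay between 6.55 and 6.62. The median tested gene stood 0.12 above the untreated mean, and the counts over the whole group are set beside the share of all tested genes with the same property. In the 5′ control probe set of ACTB the treated array had 12.23 against 13.61 and 13.60 in the untreated arrays. The 3′ control of ACTB had 14.40 against 14.19 and 14.21. GAPDH had 14.00 against 14.45 and 14.51 in its 5′ control and 14.56 against 14.53 and 14.61 in its 3′ control. The part of these differences in the results was not tested. Of the 8 listed markers of squamous epithelium 5 had a probe set of their own here and all 5 were above the filter. Among them KRT14 and CDH1 stood above both untreated arrays, KRT5 and EPCAM below both and DSG3 between them. KRT14 had 11.49 against 10.74 and 10.35, and KRT5 had 12.91 against 13.21 and 13.39. TP63, KRT6A and KRT17 were not analysed here. Of the 6 fibroblast markers COL1A1 and PDGFRB passed the filter, and the mean of the 6 was 4.98 against 5.07 and 4.90.

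Among genes with a promoter in the sequence table, those of the 4 whose treated signal stood farthest above both untreated arrays are shown first, to show where the letters of the response element lie in them. The windows run from 250 bases before a start listed for the gene to 50 bases after it. They read 5′ to 3′ on the strand of the gene, from RefSeq (GRCh38.p14). Positions are counted from that listed start, which for DDX60 and IFI27 lies inside the span of the gene and not at its edge. Capitals mark every match to GAAA, any 2 bases, GAAA on either strand. On the other strand the match reads TTTC, any 2 bases, TTTC. Matches may overlap, as in ISG15.
DDX60, chr4:168318703-168319002, minus strand: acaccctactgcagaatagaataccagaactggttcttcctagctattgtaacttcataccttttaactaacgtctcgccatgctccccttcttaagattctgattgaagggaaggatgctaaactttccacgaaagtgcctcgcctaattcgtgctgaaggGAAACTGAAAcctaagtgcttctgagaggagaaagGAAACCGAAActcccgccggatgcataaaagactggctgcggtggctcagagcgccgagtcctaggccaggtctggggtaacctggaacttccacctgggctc
IFI27, chr14:94110486-94110785, plus strand: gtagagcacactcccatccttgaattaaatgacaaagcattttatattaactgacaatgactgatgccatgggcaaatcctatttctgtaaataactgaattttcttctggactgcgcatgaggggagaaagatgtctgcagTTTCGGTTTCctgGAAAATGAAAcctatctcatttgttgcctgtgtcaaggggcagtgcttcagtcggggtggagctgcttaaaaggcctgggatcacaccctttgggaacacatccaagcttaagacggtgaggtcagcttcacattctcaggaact
MX1, chr21:41420308-41420607, plus strand: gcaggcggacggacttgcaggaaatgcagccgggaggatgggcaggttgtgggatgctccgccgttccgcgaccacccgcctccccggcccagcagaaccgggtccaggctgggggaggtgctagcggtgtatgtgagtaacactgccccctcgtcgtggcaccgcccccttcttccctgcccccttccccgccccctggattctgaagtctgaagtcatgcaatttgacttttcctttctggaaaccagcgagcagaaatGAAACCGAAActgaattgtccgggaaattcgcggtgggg
ISG15, chr1:1013247-1013546, plus strand: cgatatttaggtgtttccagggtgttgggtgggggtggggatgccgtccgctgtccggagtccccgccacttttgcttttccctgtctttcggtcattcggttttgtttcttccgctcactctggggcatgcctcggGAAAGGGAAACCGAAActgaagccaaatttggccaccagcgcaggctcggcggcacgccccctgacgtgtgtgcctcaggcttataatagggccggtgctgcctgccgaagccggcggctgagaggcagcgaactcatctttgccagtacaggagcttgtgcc

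In DDX60 and ISG15 both matches lie on the strand of the gene. In IFI27 they lie on opposite strands. In MX1, the only match of the window lies just behind the start, with its first base at position 11. IFI27 has 2 windows in the table and MX1 has 3, and the first listed is shown. DHX58, LY6E, IFIT2, IFITM2, MX2, TRIM22, USP18 and ZNFX1 have no window in the table.

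Of the 34 genes with a window, 27 held the motif in at least 1 window (79.4%), against 1195 of 27305 genes in the whole table (4.38%) and 3.57% of its 35116 windows. Windows with at least 2 matches were found for 15 of the 34, against 0.311% of all genes. The 48 matches lay between positions −196 and 23 from the start. The median position was −80, with a match counted once for each gene and window that holds it. The genes were known as interferon targets when they were chosen, so this describes the list and is no test of it. To show how alike the sites are, the match nearest to the start in the first listed window is given for 13 genes of different roles, with 5 bases on either side, written so that the GAAA repeat reads forward, with the motif in capitals.
HERC5, chr4:88457040-88457059: cagtgGAAAACGAAAcataa
IFIH1, chr2:162318691-162318710: gaatcGAAACAGAAAccaaa
DDX60L, chr4:168480528-168480547: gaaaaGAAACCGAAActaac
EIF2AK2, chr2:37156972-37156991: aagggGAAAACGAAActgag
IFIT1, chr10:89392515-89392534: ctaggGAAACCGAAAgggga
IFIT5, chr10:89414559-89414578: gctcaGAAACTGAAActtaa
IFITM1, chr11:314029-314048: tctgaGAAACTGAAAcgaca
BST2, chr19:17405740-17405759: aaactGAAACTGAAAaccta
IFI6, chr1:27672271-27672290: gtgcaGAAATAGAAActccg
IFI44L, chr1:78620370-78620389: gtgagGAAAAAGAAAgttag
DTX3L, chr3:122564327-122564346: gaagcGAAACTGAAActttg
PARP12, chr7:140062947-140062966: gaaacGAAACCGAAAgcggc
SAMD9, chr7:93118101-93118120: gaaatGAAACTGAAAccaaa

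The site of DTX3L is also the site of PARP9, its neighbour on the other strand: the windows of the pair overlap by 137 bases and share 1 match. The windows of RSAD2 and CMPK2 overlap as well, by up to 165 bases, and share none. In IFI44L the printed site occurs at both of its matches, at positions −73 and −164, with the same 20 bases. No match was found in these windows for HERC6, CMPK2, SP110, SAMD9L, UBE2L6, XAF1 and IFI35, which says only that these letters are not there.

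**Figure D1:**
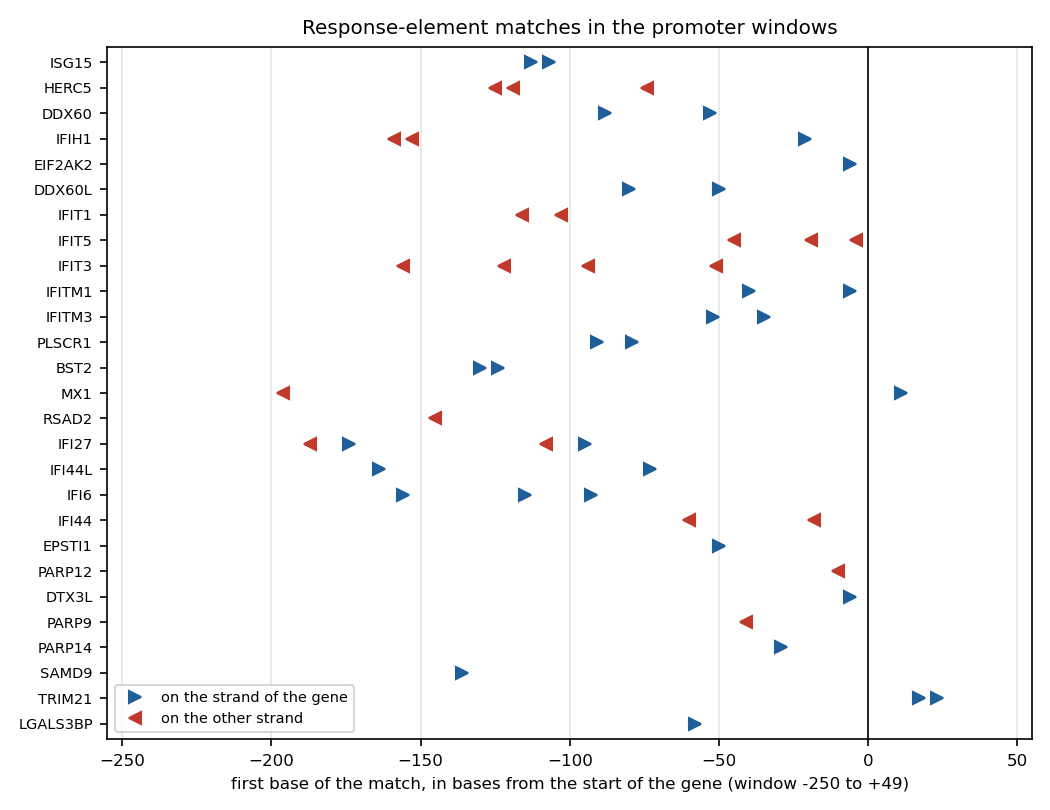
First base of each motif match, in bases from the start listed for the window (horizontal axis), for the 27 genes with a match (rows). Arrows give the strand. Genes with several windows show a site once per window, so IFI27 has 4 arrows for 2 sites. The matches gather before the start, with a median position of −80.

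Across the group the treated array carried the highest signal for most of these genes. It stood above both untreated arrays in 36 of 40 tested genes, where 51.6% of all tested genes did so. It stood below both in EIF2AK2 and LGALS3BP, where 22.5% of all genes did. The genes were chosen with earlier results of these data known, so the contrast with all genes is no independent test. The median difference from the untreated mean was 0.70, against 0.12 over all tested genes. At least 2-fold above both untreated arrays were DHX58, DDX60, IFI27, MX1 and ISG15, 5 of 40, where 0.880% of all genes were, and 13 were at least 1.5-fold above both, against 5.84%. None of the 40 passed limma's adjusted p of 0.05, where 8 of 11932 genes did (0.0670%). The lowest adjusted p among the 40 was 0.0683, for DHX58. At an unadjusted p under 0.05 limma counted 24 of the 40 as higher, against 12.2% of all genes, and EIF2AK2 as lower.

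The 2 untreated arrays did not agree on these genes. Untreated 1 was above untreated 2 in 35 of the 40, where 53.0% of all tested genes were, and the median gap was 0.40, where the median size of the gap over all genes was 0.18. In 31 of the 40 the order was treated, untreated 1, untreated 2, as it was in 3112 of all 11932 tested genes. Taken from untreated 1 alone, the median difference of the treated array was 0.46 and 36 of 40 were higher (63.1% of all genes). From untreated 2 alone the median was 0.86 and 38 of 40 were higher (66.0% of all genes). At least 2-fold higher were 5 genes from untreated 1 and 16 from untreated 2, against 2.71% and 2.46% of all genes. The treated array stood above both by more than the untreated arrays stood apart in 19 of 40 genes, against 30.6% of all genes. EIF2AK2 stood below both by 0.61, where its untreated arrays were 0.43 apart, and in the other 20 the treated array stood no farther outside the untreated arrays than these stood apart.

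**Figure D2:**
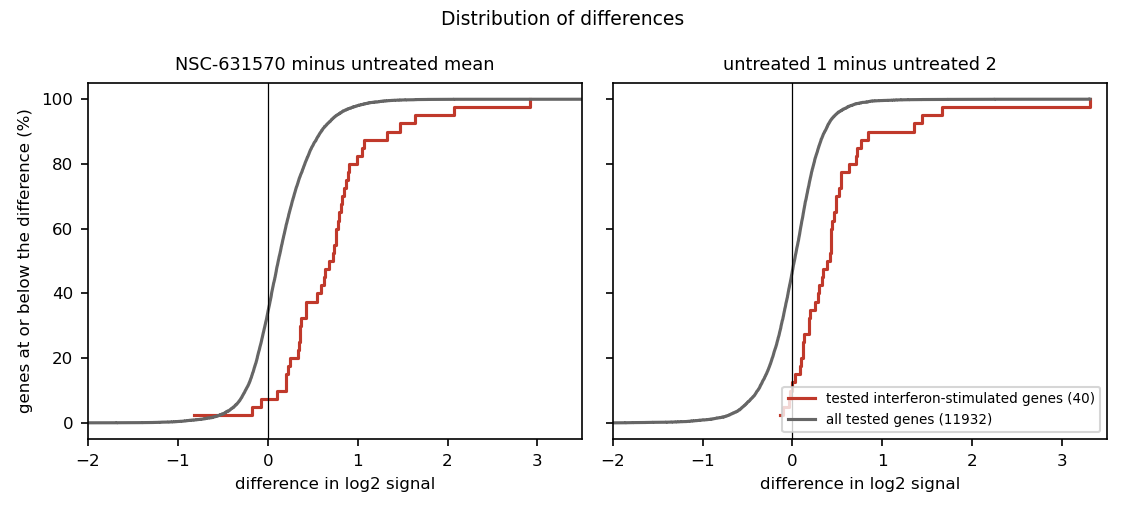
Share of genes at or below each difference in log2 signal, for the 40 tested interferon-stimulated genes and for all 11932 tested genes. On the left is the treated array minus the untreated mean (medians 0.70 and 0.12), on the right untreated 1 minus untreated 2, where the same genes also lie to the right of all genes (median 0.40).

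Most of the listed markers of leukocytes had the same order, several by small distances. Of the 5 that had a probe set of their own here, all were higher in untreated 1 than in untreated 2, where 53.0% of all tested genes were. In the treated array 4 were higher still, where 51.6% of all tested genes stood above both. The means of the 5 were 6.31 against 6.22 and 5.87. CD3E had 6.05 against 6.04 and 5.65, CSF1R had 6.21 against 6.15 and 5.96, and ITGAX lay between the untreated arrays at 8.12 against 8.13 and 7.85. PTPRC, the antigen that defines leukocytes, was far under the filter at 3.78 against 3.72 and 3.72. CD14 stood at 7.42 against 7.03 and 6.17. The part of other cells in the gaps was not tested.

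The ISG15 conjugation genes were all above both untreated arrays, 4 of 4, with a median difference of 0.83. ISG15, the ubiquitin-like protein that is attached to others, had 13.37 in treated cells, against 12.32 in untreated 1 and 12.32 in untreated 2. The untreated values were equal to the second decimal, and the treated one was 2.07-fold higher (1.05 ± 0.21, adjusted p = 0.118). HERC5, its main ligase in human cells, had 11.14 in treated cells, against 10.40 and 10.37 (0.76 ± 0.21, 1.69-fold, adjusted p = 0.18). HERC6, a close relative of HERC5 whose mouse counterpart is the ISG15 ligase of that species, had 9.44 against 8.72 and 8.34 (0.91 ± 0.24, adjusted p = 0.171). UBE2L6, the conjugating enzyme that hands ISG15 on, had 10.94 against 10.42 and 9.99 (0.73 ± 0.25, adjusted p = 0.248). In each of the 4 the treated array exceeded the higher untreated array by more than the untreated arrays differed. ISG15 and UBE2L6 were read by probe sets whose IDs mark possible cross-hybridisation.

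Among the sensors and helicases of viral RNA, 5 of 6 stood above both untreated arrays and 1 below both. DHX58, also called LGP2, which tunes the sensors RIG-I and MDA5, had 9.53 in treated cells, against 7.87 and 7.90 in untreated cells. That is a 3.12-fold difference (1.64 ± 0.21, adjusted p = 0.0683) between arrays that agreed within 0.03 on the untreated side. Its other probe sets past the filter stood 0.87 and 0.76 above the untreated mean, and a dim probe set of it under the filter stood 0.25 above. DDX60, a helicase that promotes signalling by RIG-I, had 11.39 against 10.12 and 10.00 (1.33 ± 0.22, 2.51-fold, adjusted p = 0.0900). Its paralog DDX60L had 8.95 against 8.39 and 7.95, above both by 0.56. IFIH1, the sensor MDA5, had 8.80 against 8.01 and 7.597 (0.997 ± 0.249, adjusted p = 0.153), and a dim probe set of it under the filter was below both (−0.17 from the untreated mean). ZNFX1, a helicase-like sensor on mitochondria, had 8.22 against 8.21 and 8.03, and was 0.013 above untreated 1.

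EIF2AK2, the kinase PKR that halts translation when it binds double-stranded RNA, went the other way. It had 9.06 in treated cells, against 10.10 and 9.67, a signal below both (−0.82 ± 0.25, 1.77-fold lower, adjusted p = 0.208). Its other probe set, marked as cross-hybridising, had 8.76 against 9.12 and 8.65 and so lay between the untreated arrays. The promoter window of EIF2AK2 holds the motif, printed among the sites, as do those of IFIH1, DDX60 and DDX60L. DHX58 and ZNFX1 have no window here.

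All 4 IFIT genes stood above both untreated arrays, by unequal distances. These proteins, whose genes lie together on chromosome 10, bind viral RNA that lacks the marks of the cell's own. IFIT2 had 11.29 in treated cells, against 10.49 and 10.63 (0.73 ± 0.22, 1.65-fold, adjusted p = 0.198). Its second probe set had 7.75 against 8.23 and 8.20 and was below both, so the probe sets of IFIT2 disagree. IFIT1, which clamps RNA without 2′-O-methylation at its cap, had 11.12 against 10.54 and 10.06 (0.83 ± 0.26, adjusted p = 0.219). IFIT5 had 8.27 against 8.04 and 7.79 (0.35 ± 0.23, adjusted p = 0.548), and its other probe set was 0.54 above the untreated mean. IFIT3, the partner that stabilises IFIT1, had 10.37 against 10.27 and 9.73 (0.36 ± 0.27, adjusted p = 0.619) and was 0.094 above untreated 1.

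Membrane proteins against entry and release showed small differences. Of the 6, 5 stood above both untreated arrays, with a median difference of 0.39. IFITM1, which blocks fusion at the plasma membrane, had 12.66 in treated cells, against 11.98 and 12.08 (0.63 ± 0.22, 1.55-fold, adjusted p = 0.247), and its second probe set stood at 0.71. IFITM2 and IFITM3 act in endosomes. IFITM2 had 11.39 against 10.99 and 10.70 (0.55 ± 0.23, adjusted p = 0.337), with 0.17 in its other probe set. IFITM3 had 12.60 against 12.45 and 12.35 (0.20 ± 0.22, adjusted p = 0.767). The IFITM genes are close paralogs, and the probe sets used for them are marked as cross-hybridising, so their signals may share transcripts. LY6E, a GPI-anchored protein that hinders coronavirus fusion, had 9.92 against 9.55 and 9.46 (0.42 ± 0.22, adjusted p = 0.431). PLSCR1, a scramblase family protein, had 11.66 against 11.55 and 11.37, and all 6 of its probe sets stood above both untreated arrays, by 0.19 to 0.38 from the untreated mean.

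BST2, or tetherin, which holds budding virions at the cell surface, was the one membrane gene that did not. It had 10.76 in treated cells, against 11.12 in untreated 1 and 9.68 in untreated 2. The untreated arrays were 1.44 apart and the treated one lay between them, in all 3 of the probe sets past the filter.

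MX1, the GTPase that traps viral nucleocapsids in the cytoplasm, had 8.91 in treated cells, against 7.67 in untreated 1 and 6.004 in untreated 2. It was 4.20-fold above the untreated mean (2.07 ± 0.56, adjusted p = 0.171), above both, and its untreated values were 1.66 apart, more than the 1.24 between treated and untreated 1. The related MX2, which acts on lentiviral capsids, did not pass the filter and was not tested. Its brighter probe set had 6.05 against 5.32 and 4.76. CMPK2, a mitochondrial nucleotide kinase next to RSAD2 in the genome, had 8.39 against 7.89 and 7.18 (0.85 ± 0.30, adjusted p = 0.265), while its 2 dimmer probe sets were below both untreated arrays.

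RSAD2, or viperin, which makes a chain-terminating nucleotide, gave different answers by probe set. The brightest had 7.11 in treated cells, against 7.03 and 6.52 (0.33 ± 0.27, adjusted p = 0.652). The other, nearly as bright on average, had 7.82 against 6.77 and 5.98, which is 1.44 above the untreated mean and 1.05 above untreated 1.

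The interferon-induced genes IFI6, IFI27, IFI35, IFI44, IFI44L, EPSTI1 and XAF1 were above both untreated arrays in 7 of 7, and in all 7 untreated 1 was above untreated 2. IFI27, a small protein of the inner mitochondrial membrane and a common blood marker of an interferon response, had 13.37 in treated cells, against 12.11 in untreated 1 and 8.80 in untreated 2. Its difference of 2.92 ± 1.04 (7.54-fold, adjusted p = 0.265) averages 1.26 from untreated 1 and 4.57 from untreated 2, and the untreated values were 3.31 apart. Both of its probe sets, each marked as cross-hybridising, agreed, at 2.92 and 2.81. IFI44L, a feedback regulator of the response, had 7.73 against 6.93 and 5.58 (1.48 ± 0.47, 2.78-fold, adjusted p = 0.222). IFI6, another small mitochondrial and ER protein, had 9.04 against 8.59 and 7.86 (0.82 ± 0.31, adjusted p = 0.283). Its distance of 0.46 from untreated 1 was smaller than the untreated gap of 0.72.

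IFI35, which binds the regulator NMI, was the member of this group with a distance larger than the untreated gap. It had 9.66 in treated cells, against 8.68 and 8.48 (1.07 ± 0.22, 2.11-fold, adjusted p = 0.122), and its second probe set stood at 1.03. IFI44 had 11.72 against 11.32 and 10.86, and all 6 of its probe sets were above both untreated arrays, with differences of 0.21 to 1.61 from the untreated mean. EPSTI1 had 8.11 against 7.93 and 7.61.

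XAF1, which antagonises the apoptosis inhibitor XIAP, had 7.32 in treated cells, against 7.32 and 6.48 on its brightest probe set. That is 0.00204 above untreated 1. The other 6 probe sets of XAF1 were all above both untreated arrays, but 5 of them were under the filter. The largest difference among these was 2.29, at 6.78 in treated cells against 4.88 and 4.10.

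The ADP-ribosyltransferase genes and their partner were above both untreated arrays in 4 of 4. PARP12, PARP14 and DTX3L were read by probe sets whose IDs mark possible cross-hybridisation. Without such probe sets the differences from the untreated mean were −0.24 for PARP14 and −0.25 for DTX3L, and PARP12 had no other probe set. PARP12, found at stress granules, had 9.73 in treated cells, against 8.85 and 8.88 (0.87 ± 0.21, 1.82-fold, adjusted p = 0.15), with untreated values 0.02 apart. DTX3L, the ubiquitin ligase that pairs with PARP9, had 9.89 against 9.35 and 8.86 (0.79 ± 0.26, adjusted p = 0.234). PARP9 itself, which shares a promoter region with DTX3L, had 10.09 against 9.65 and 9.01 (0.76 ± 0.29, adjusted p = 0.29). The pair differed from the untreated mean by nearly the same amount, and in both the dimmest of 3 probe sets was below both untreated arrays (−0.25 and −0.22 from the untreated mean). PARP14 had 9.67 against 9.61 and 9.27 (0.23 ± 0.24, adjusted p = 0.749), and of its 6 probe sets 3 were above both, 1 between and 2 below both.

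Of the remaining 6 effectors 4 stood above both untreated arrays. SAMD9L and SAMD9 are neighbouring genes whose products can shut down translation in infected cells. SAMD9L had 7.46 in treated cells, against 6.96 and 6.19 (0.89 ± 0.32, adjusted p = 0.265). SAMD9 had 11.00 against 10.53 and 10.10 (0.68 ± 0.25, adjusted p = 0.274). TRIM22, a ubiquitin ligase with antiviral activity, had 8.78 against 8.45 and 7.91 (0.60 ± 0.27, adjusted p = 0.37). Its other 4 probe sets past the filter all lay between the untreated arrays. TRIM21, the cytosolic antibody receptor, had 7.15 against 6.96 and 6.85 (0.25 ± 0.22, adjusted p = 0.688).

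SP110, a nuclear body protein, had 8.28 in treated cells, against 8.51 and 8.21, between the untreated arrays, while a second probe set of nearly the same brightness had 8.66 against 8.20 and 8.09. LGALS3BP, a secreted galectin-binding glycoprotein, had 10.68 against 10.91 and 10.79, below both by 0.11. Their differences of −0.076 and −0.17 from the untreated mean were within 1 SE of 0.

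**Figure D3:**
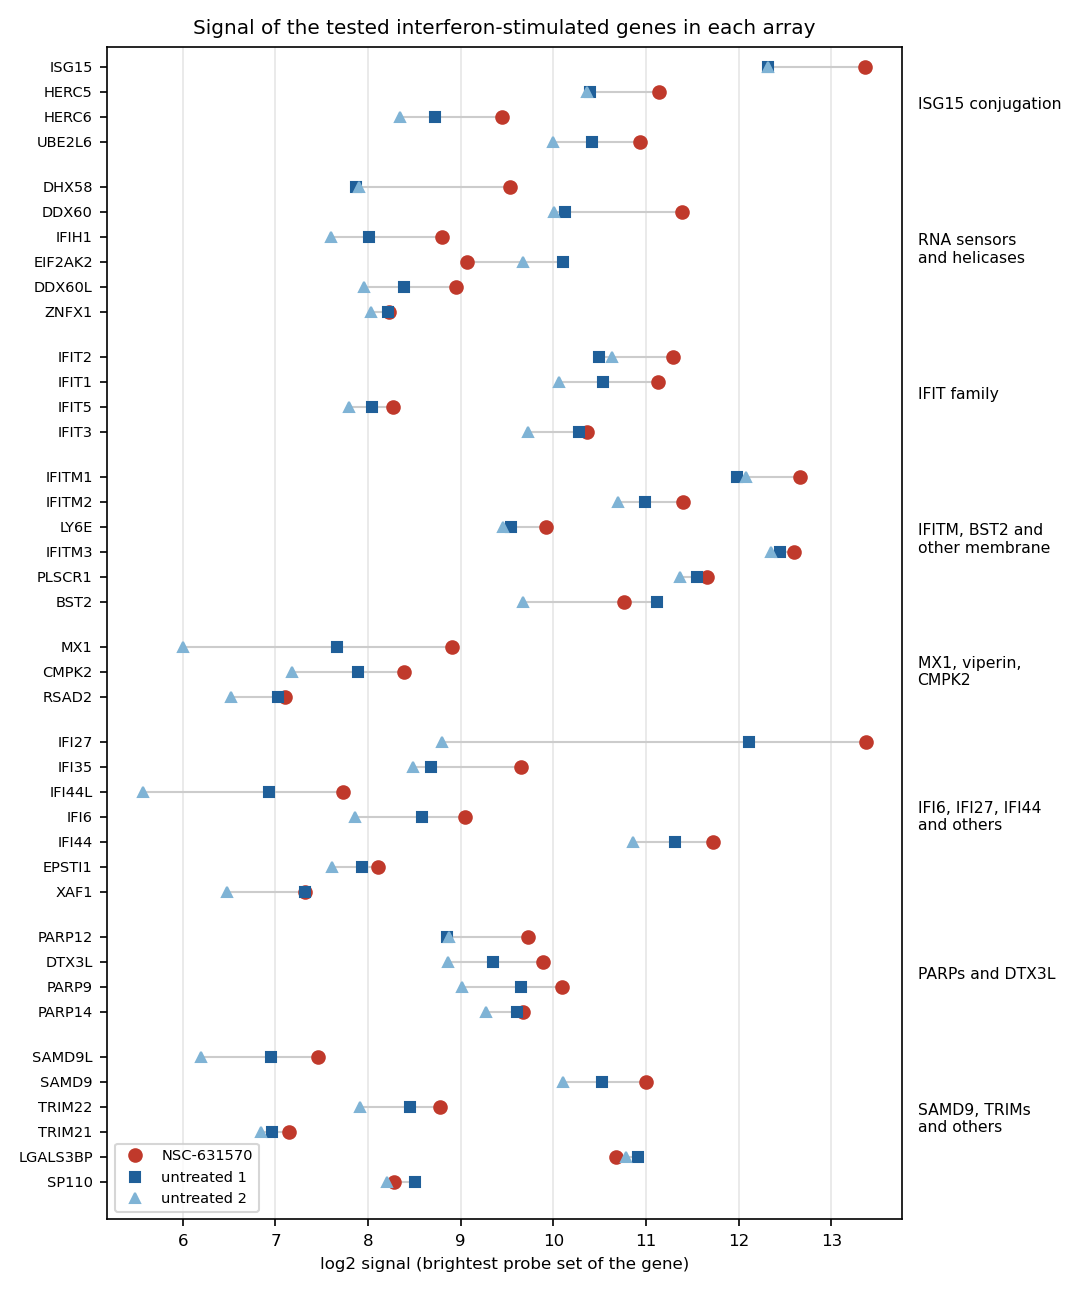
Log2 signal of the brightest probe set (horizontal axis) in the treated array (circles), untreated 1 (squares) and untreated 2 (triangles) for the 40 tested genes, grouped by role. The circle lies farthest right in 36 rows, and squares lie to the right of triangles in 35. Grey lines join the lowest and the highest value of a gene.

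**Figure D4:**
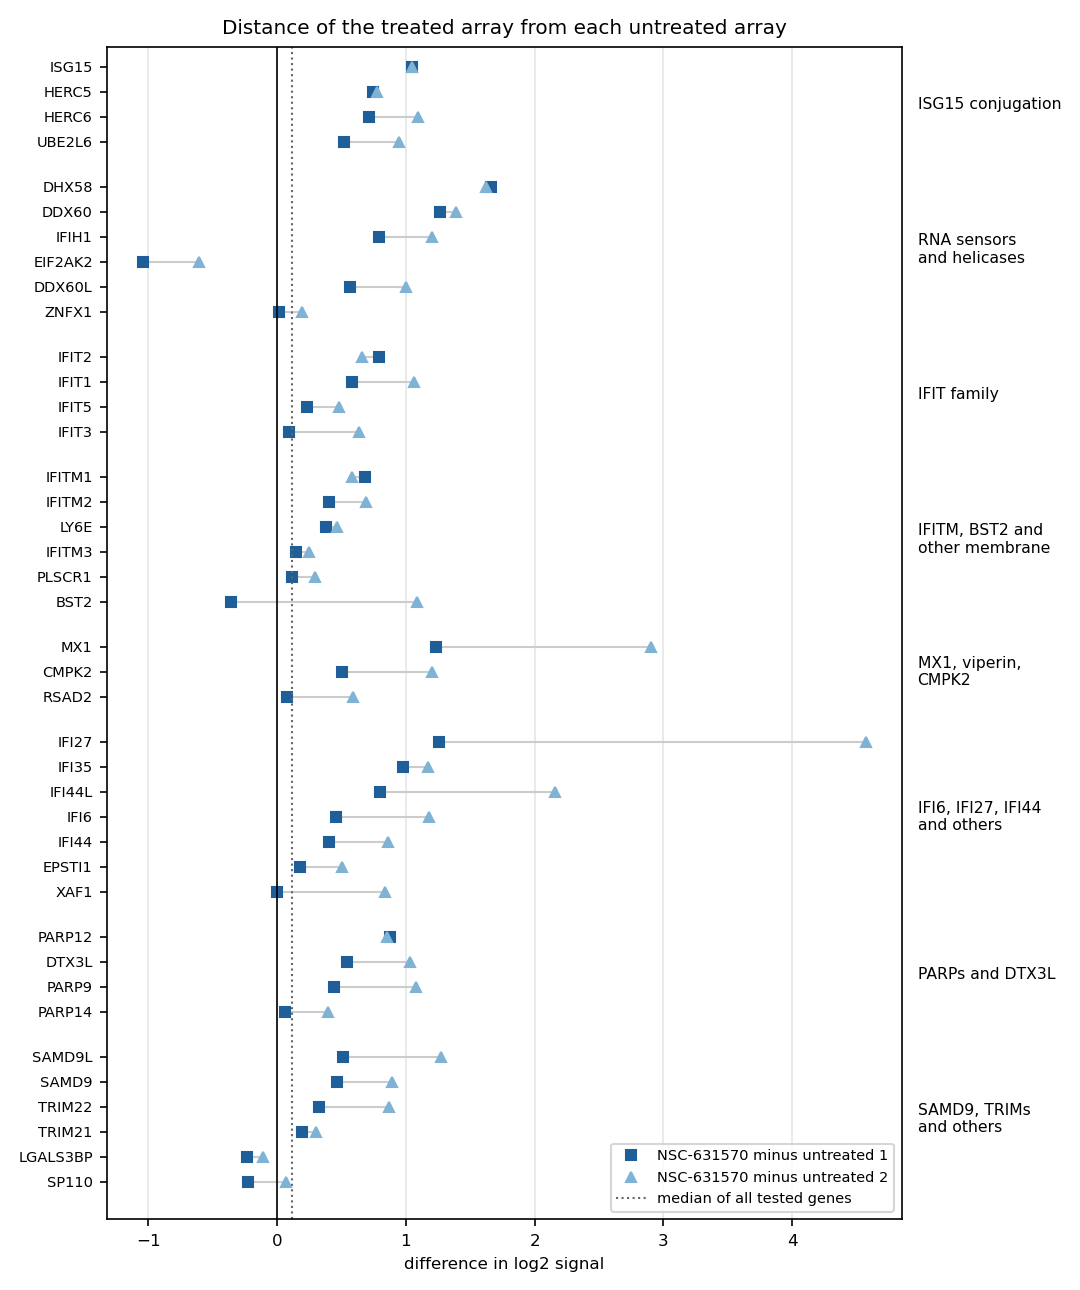
Treated minus untreated 1 (squares) and treated minus untreated 2 (triangles) in log2 signal for the same genes. The dotted line is the median difference of all tested genes, 0.12. Both symbols nearly coincide for ISG15, HERC5, DHX58 and PARP12 and lie far apart for IFI27, MX1, IFI44L and BST2.

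The genes differed in how well the untreated arrays agreed. In 13 the untreated gap was smaller than the 0.18 that is the median over all genes, and among these the treated array stood above both in 12 of 13, with a median difference of 0.63. The exception was LGALS3BP. A small gap leaves little room between the untreated arrays, and the share above both among all genes with such a gap was not computed. The count therefore has no background beside it. In the other 27 genes the untreated arrays were farther apart, always with untreated 1 the higher. Their median difference was 0.73, with 0.46 from untreated 1 and 0.999 from untreated 2. Gaps of at least 2-fold were found in 4 genes, IFI27, MX1, BST2 and IFI44L.

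Taken probe set by probe set, 62 of the 84 past the filter stood above both untreated arrays (73.8%), against 40.7% of all single-gene probe sets past it, and 9 stood below both. Of the 21 genes with several such probe sets, 12 had all of them above both, EIF2AK2 and BST2 had none, and 7 were mixed. The mixed ones were IFIT2, CMPK2, PARP9, PARP14, DTX3L, TRIM22 and SP110. Where along the transcript each probe set lies was not analysed here. The part of the lower 5′ signals of ACTB and GAPDH in the treated array was not tested.

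**Figure D5:**
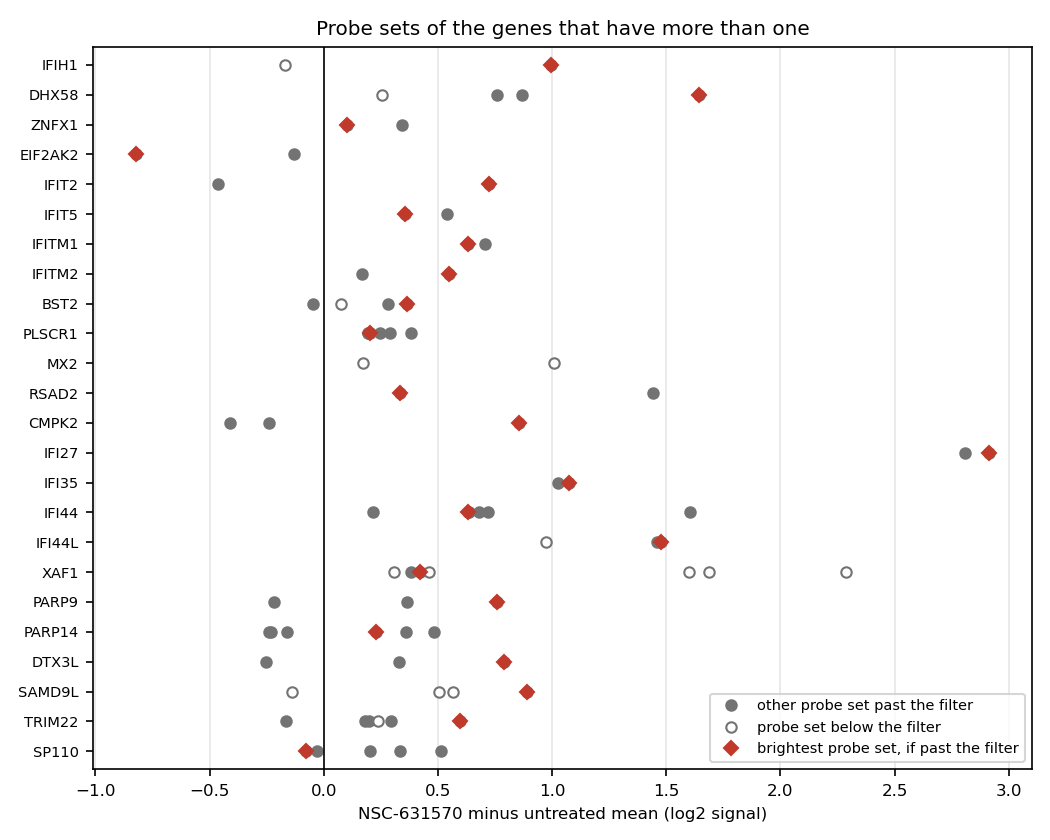
Difference of the treated array from the untreated mean in log2 signal for every probe set of the 24 genes that have more than 1. Diamonds are the probe sets used for the gene, filled circles the others past the filter and open circles those under it. The symbols of PLSCR1, IFI27 and IFI35 lie close together. Those of XAF1, RSAD2, CMPK2, IFIT2, DHX58, IFI44, IFIH1, DTX3L and SAMD9L are spread over more than 1 log2 unit.

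Genes that start and carry the interferon signal were read in the same fit, from lists written beside the effector genes. For comparison with the counts of these lists, 51.6% of all tested genes stood above both untreated arrays and 22.5% below both. The median difference over all tested genes was 0.12. The ligands with a probe set of their own, IFNB1, IFNE, IFNG, IFNK and IFNL1, were all under the filter and not tested. IFNL1, a type III interferon made by epithelia, had 5.77 in treated cells, against 5.53 and 5.38, and IFNB1 had 3.96 against 4.27 and 4.14. Of 9 receptor and kinase genes none passed and 7 stood above both untreated arrays, with a median difference of 0.41. IFNLR1, the chain specific to type III interferon, had 8.55 against 7.63 and 7.52 (0.98 ± 0.22, adjusted p = 0.131), and JAK2 had 8.01 against 7.57 and 6.93 (0.76 ± 0.29, adjusted p = 0.287).

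All 5 tested transcription factor genes stood above both, and none passed. IRF7, which amplifies interferon production, had 9.71 in treated cells, against 8.42 and 8.29 (1.35 ± 0.22, 2.56-fold, adjusted p = 0.0900). IRF9, the DNA-binding subunit of the factor that reads the element, had 10.78 against 9.73 and 8.57 (1.63 ± 0.42, adjusted p = 0.156). ISG20, an exoribonuclease, was listed beside the oligoadenylate genes OAS1, OAS2, OAS3 and OASL and is not one of that family. It was higher in treated cells (10.06 against 7.62 and 7.68, 5.30-fold, adjusted p = 0.0118), the 1 of 5 on that list to pass. None of the OAS family genes passed. OASL had 12.83 against 11.57 and 11.58 (adjusted p = 0.0900).

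Of 10 sensors and adaptors, 5 were above both untreated arrays and 3 below both, where 51.6% and 22.5% of all tested genes were. Their median difference was 0.065, against 0.12 over all tested genes, and none passed the threshold. RIGI, the sensor of uncapped RNA, had 10.22 in treated cells, against 9.64 and 9.64 (0.58 ± 0.21, adjusted p = 0.273), and TRIM25, a ubiquitin ligase that acts on it, had 8.59 against 9.69 and 9.42 (−0.97 ± 0.23, adjusted p = 0.141). Of 5 feedback inhibitors 2 were above both, a smaller share than the 51.6% of all tested genes, and none passed. Those 2 were SOCS1 with 6.78 against 6.08 and 5.59 (0.95 ± 0.26, adjusted p = 0.176) and PTPN6 with 9.81 against 9.03 and 9.38. Of the 5 tested genes that answer mainly interferon-gamma 4 were above both and none passed, with a median difference of 0.35. WARS1 had 11.94 against 11.21 and 11.51 and GBP4 7.13 against 6.85 and 6.41. The chemokine genes CXCL9, CXCL10 and CXCL11, and IDO1, were under the filter in these cells.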

How the data were processed

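RNA of FaDu cells, 1 treated and 2 untreated samples, was hybridised to Affymetrix PrimeView arrays, from 100 ng of total RNA by biotin labelling, per the labels' protocols. Deposited log2 signals came from Affymetrix Expression Console, which the authors used, per the submitters' processing notes. Its algorithm, version and between-array normalisation were not given in the sources used here. From the values (2.92 to 14.95) the log2 scale was read, and they were used as deposited. The number of arrays limits the precision, and detection was not called.

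Of 49395 probe sets, 102 array controls, 1832 that name several genes and 2473 without a gene were left out. The fit used limma 3.58.1 in R 4.3.3 with 1 residual degree of freedom and an estimated prior SD of 0.187 (6.90 prior degrees of freedom). It was tested on simulated data. The spread comes from 2 arrays, so adjusted p-values may be too small. Genes and role groups were chosen with earlier results of these data known. All tested genes of the list are named; full statistics go to up to 4 per role group, and 2 per other list (with IRF9 and ISG20), by distance from the nearer untreated array. Other genes of the lists named in the text were chosen after their values were seen. Alternatives were other normalisations, filters, choices of probe set and prior variances, and leaving out each untreated array.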

Additional observations from a re-analysis of the deposited data

How the results depend on the processing

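Of the 40 genes, the number past the adjusted p threshold was 0 with the deposited values, after quantile normalisation, without a filter and when probe sets of a gene were averaged. Among all genes 8, 4, 4 and 3 passed there. When all probe sets were centred on 1 median, 4 of the 40 passed (ISG15, DHX58, DDX60 and IFI35, among 136 genes in all). Centring on the median of tested genes gave 1 (among 50), as did a filter at the 60th percentile (among 21), DHX58 in both. Without cross-hybridising probe sets it was 2, among 121 genes. With probe sets fitted one by one it was also 2, among 799 of 27249 probe sets, 648 of them lower and 151 higher. Those 2 were DHX58 and DDX60 in both settings. An intensity trend in the prior variance gave 2 (ISG15 and DHX58), among 31 genes. Over these alternatives the adjusted p of DHX58 ran from 0.0132 to 0.158. The cause of these changes was not tested.

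The median difference kept its sign in each alternative tried, from 0.43 with averaged probe sets to 0.86 without untreated replicate 1, and it was 0.46 without untreated replicate 2. Centring on the tested genes gave a median over all genes of −0.079, against 0.12 as deposited. Relative to it, 27 of 40 stood above both untreated arrays, against 28.4% of all genes, and the median of the 40 was 0.51. The genes at least 2-fold above both numbered 3 of the 31 left without cross-hybridising probe sets, against 0.831% of all genes. At 1.5-fold they numbered 13 of 40, against 5.84%. Without untreated replicate 2, 5 genes were at least 2-fold above the remaining array and 36 were above it, against 2.71% and 63.1% of all genes. Without untreated replicate 1 these were 16 and 38, against 2.46% and 66.0%. No test is possible there with 1 array on each side. Single genes turned sign in 6 cases: BST2 without untreated replicate 2 (−0.36), SP110 without untreated replicate 1 (0.073), ZNFX1 when centred on the tested genes (−0.093), PARP14 (−0.24) and DTX3L (−0.25) without cross-hybridising probe sets, and SP110 with its probe sets averaged (0.19). No paired analysis was possible because the treated array has no number that pairs it with an untreated one.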

Other observations

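Differences were also read by whether the promoter window held the motif. The 27 tested effector genes with a match had a median difference of 0.68 from the untreated mean, and 24 of them stood above both untreated arrays, while in the 7 with a window and no match the median was 0.85 and 6 stood above both. Outside the list, 338 tested genes held the motif, with a median difference of 0.11 and 47.9% above both, against 0.12 and 52.0% in the 9396 tested genes whose windows held no match.

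The neighbours PARP9 and DTX3L, which share a motif match between their starts, stood at 0.76 and 0.79 above the untreated mean, while the neighbours RSAD2 and CMPK2 stood at 0.33 and 0.85 on their brightest probe sets, or at 1.44 for RSAD2 on the other one. In XAF1 the 3 probe sets with the largest differences (1.60, 1.69 and 2.29) were under the filter by their mean, although in the treated array all 3 were above it.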
